A study of Sus scrofa with 8 samples.

Results

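Antioxidant enzymes and heme oxygenase 1 were described in the lung of Tibetan and Duroc pigs through 10 genes: SOD1, SOD2, CAT, GPX1, GPX3, GPX4, HMOX1, TXN, PRDX6 and NQO1. A probe was taken as a member when its gene symbol was one of these, either from the RefSeq accession in the array design or from the supplementary tables of the study, and when its signal was well above background on at least 1 array. By this rule 9 of the 10 genes had a probe, of 3837 genes with a symbol, with 17 probes among the 34406 that passed the same filter out of 43603 on the array. SOD1, the cytosolic copper and zinc superoxide dismutase, had no probe by this rule and was not analysed here. All 17 member probes were well above background on all 8 arrays and none was saturated.

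The study used a migrant design on 1-color Agilent arrays, in which lung RNA was hybridized from 2 pigs of each of 4 groups, with 1 pig per array. TH were Tibetan pigs that lived at 3500 m, and TL were Tibetan pigs that were moved to 40 m at 1 month of age. DH were Duroc pigs that were moved to 3500 m at 1 month of age, and DL were Duroc pigs that lived at 40 m. All were females and were sampled at 6 months. The move was thus part of TL and DH and not of TH and DL, so that moving and the interaction of breed and altitude cannot be told apart. The arrays of the pigs that stayed (TH and DL) shared 1 slide, and those of the pigs that were moved (DH and TL) shared the other. A difference between slides has therefore the form of the interaction, whereas the breed and altitude effects are balanced over the slides. TH and DL differ in breed and in altitude at once, as do TL and DH. Breed and altitude therefore cannot be told apart in TH minus DL or in TL minus DH.

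Superoxide dismutases convert superoxide to hydrogen peroxide, which is removed by catalase, by glutathione peroxidases that use glutathione, and by peroxiredoxins that are mostly reduced through thioredoxin. Heme oxygenase 1 cleaves heme to biliverdin, carbon monoxide and iron. HMOX1, NQO1 and several genes of glutathione and thioredoxin metabolism are known targets of NRF2, the product of NFE2L2, which KEAP1 holds in check, and HMOX1 is expressed in alveolar macrophages among other lung cells.

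The values below are the deposited log2 signals, which have the same distribution on every array. Differences are on the log2 scale, with the standard error (SE) of a two-way limma model over all 34406 probes and n = 2 arrays per group, and a probe was called at a Benjamini-Hochberg adjusted p below 0.0001. Tests were read for the 10 probes named by a RefSeq accession. The other 7 probes (all of SOD2 and GPX3, 1 of CAT and 1 of TXN) took their names from tables that the study had ordered or selected by tests on the same arrays, and are described by their values without a test. The pooled SD between the 2 arrays of a group was 0.0098 to 0.194 over the member probes with a median of 0.030, against a median of 0.059 over all tested probes. By the methods each array is a separate pig, and p-values measure only this small spread between 2 pigs of a group.

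The surfactant gene SFTPC, a marker of alveolar type II cells, was 18.55 to 19.04 over the 8 arrays, and SFTPB, SFTPA1 and SFTPD were well above background on all of them, as the label lung requires. The TL arrays stood apart, with a median raw spot signal of 324 and 333.5 against 207.5 to 230 on the other arrays. When the signals were scaled to the 75th percentile of each array in place of the common distribution, the bright member probes fell in TL relative to the other groups, and the median interaction over all tested probes moved from 0.21 to 0.33. Differences of the members' main probes that involve TL are therefore given with both scalings where the direction turned. Pathway, oxidase and marker values are on the deposited values unless stated otherwise. In the 10 RefSeq-named member probes, TH minus DL and TH minus DH kept their direction under all 4 scalings that were run.

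HMOX1 had the largest breed effect of the RefSeq-named members. The deposited log2 signal of HMOX1 was 14.93 and 14.91 in TH, 16.11 and 16.13 in TL, 16.52 on both arrays of DH, and 16.38 and 16.37 in DL. Both TH arrays lay below all 6 others and no groups overlapped. HMOX1 was 2.74-fold lower in TH than in DL, on the same slide (log2 difference -1.46, SE 0.022, limma adjusted p = 4.52e-06). It was 3.02-fold lower in TH than in DH (-1.60, SE 0.022, limma adjusted p = 3.64e-06) and 2.30-fold lower in TH than in TL (-1.20, SE 0.022, limma adjusted p = 1.26e-06), the last of which was -0.45 with the 75th percentile scaling. In Duroc pigs HMOX1 was 0.14 (SE 0.022) higher at high altitude, which was not called (limma adjusted p = 0.00415).

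The breed effect of HMOX1, Tibetan minus Duroc, was -0.93 (SE 0.016, limma adjusted p = 2.28e-06) and was called under all 17 alternatives, from -1.29 to -0.90. It is a mean over both altitudes, with -1.60 at high altitude (TH minus DH). At low altitude TL minus DL was -0.26 (SE 0.022), which was not called (limma adjusted p = 2.20e-04). With the 75th percentile scaling TL minus DL was -0.91. The altitude effect, high minus low, was -0.53 (SE 0.016, limma adjusted p = 8.08e-06), but it was -0.06 and not called with the 75th percentile scaling, and its call was lost when any 1 of the 8 arrays was left out. The interaction, TH minus TL less DH minus DL, was -1.34 (SE 0.032, limma adjusted p = 3.32e-06) and was called under all 16 alternatives, at -0.78 with the 75th percentile scaling. Slide and interaction cannot be told apart. In whole lung, fewer cells of a type and less RNA per cell cannot be told apart either.

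Of 10 macrophage markers, CD163, CD14, C1QA and FABP4 had a RefSeq-named probe, and none was near background. Their summed level, as log2, was 17.91 to 17.92 in TH, 17.97 to 18.02 in TL, 18.56 to 18.59 in DH and 18.28 to 18.29 in DL. All summed marker levels given here, the endothelial ones included, are on the deposited values alone, and their order can depend on the scaling where TL is involved. With the 75th percentile scaling TL minus DH moved from -0.94 to -1.66 for C1QA and from -0.16 to -0.89 for CD163. Between TH and DL the markers went different ways: C1QA, a complement subunit made by macrophages, was -0.74 (SE 0.028), FABP4 was 1.27 (SE 0.070), CD163, the scavenger receptor for hemoglobin, was -0.02 (SE 0.029) and CD14 was 0.01 (SE 0.035). The part of macrophage number in the level of HMOX1 was not tested. Of 8 endothelial markers PECAM1 and CDH5 had a RefSeq-named probe, and their summed level was 16.60 to 16.62 in TH and 17.03 to 17.32 on the other arrays, whose part in HMOX1 and GPX3 was not tested either. Of 7 markers of secretory airway cells BPIFA1 and BPIFB1 had a RefSeq-named probe, and both were called higher in Tibetan pigs (breed effects 5.35, SE 0.042, and 1.43, SE 0.026). Their summed level was 14.99 to 15.04 in TH, 16.07 to 16.09 in TL, 12.64 to 12.69 in DH and 12.59 to 12.62 in DL. Of 7 neutrophil markers FCGR3A and LTF had a RefSeq-named probe, with a summed level of 17.20 to 17.30 in TH, 17.25 to 17.36 in TL, 17.59 to 17.61 in DH and 17.25 to 17.28 in DL. LTF, which airway glands also make, was called higher in Tibetan pigs (2.84, SE 0.034), and FCGR3A was -0.19 (SE 0.039) and not called. The part of these cells in the breed differences given here was not tested. No probe of the 9 erythroid markers was named by RefSeq, so that blood in the samples was not measured by them.

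**Figure D1:**
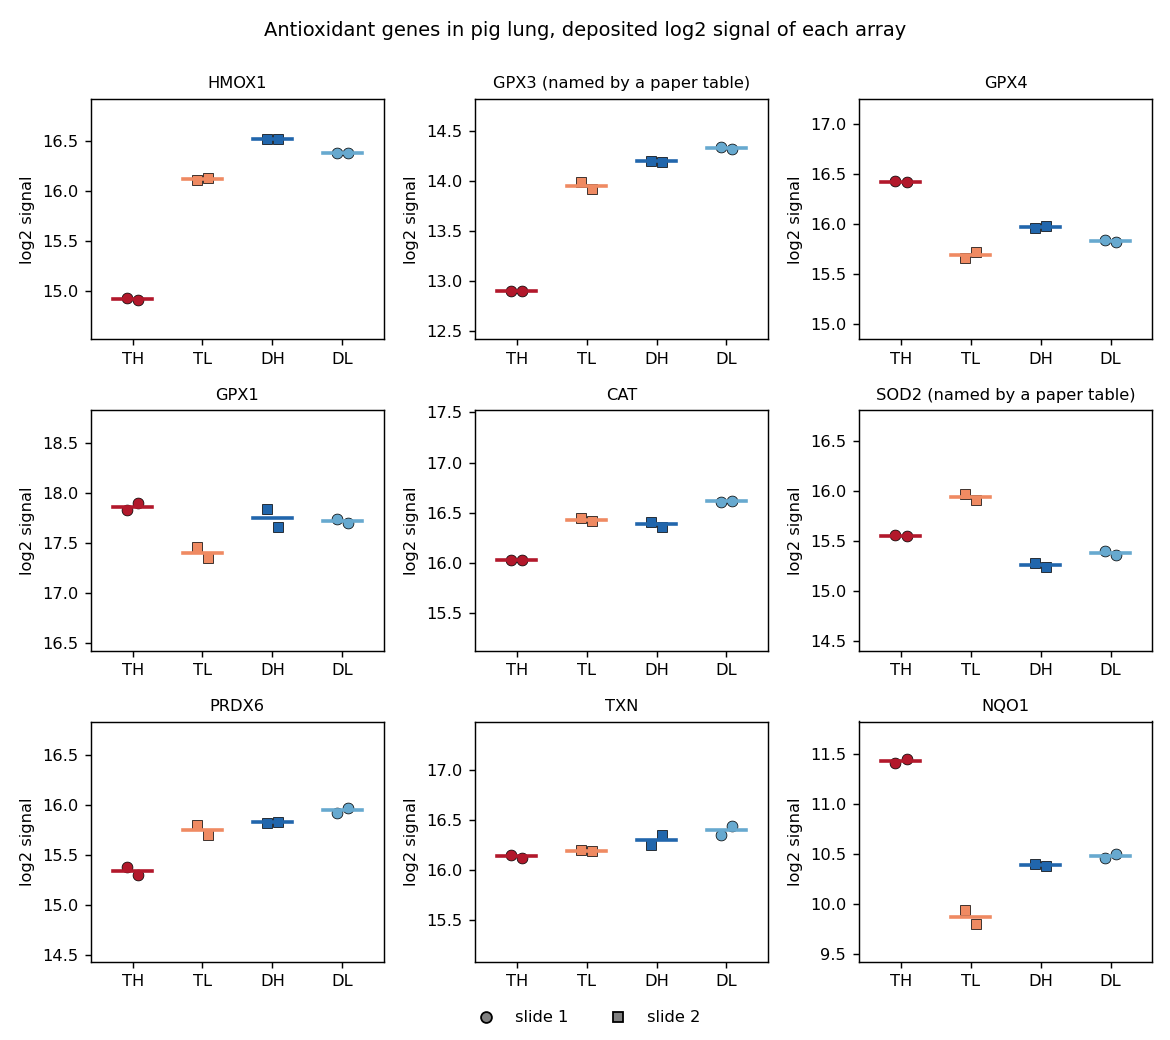
Deposited log2 signal of the main probe of each of the 9 genes (vertical axes, each spanning the same log2 range) in the groups TH, TL, DH and DL; each point is 1 array, circles and squares mark the 2 slides, and lines are group means. HMOX1, GPX3, CAT and PRDX6 are lowest and GPX4 and NQO1 highest on both TH arrays, and SOD2 is highest in TL. With the 75th percentile scaling CAT and PRDX6 were lower in TL than in TH, and SOD2 was lowest in TL.

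NQO1, a quinone reductase, moved the other way from HMOX1. Its log2 signal was 11.41 and 11.45 in TH, 9.94 and 9.79 in TL, 10.40 and 10.38 in DH, and 10.45 and 10.50 in DL. Both TH arrays lay above all others and both TL arrays below all others, while DH minus DL was -0.08 (SE 0.053). NQO1 was 1.94-fold higher in TH than in DL (0.95, SE 0.053, limma adjusted p = 8.62e-05) and 2.05-fold higher in TH than in DH (1.04, SE 0.053, limma adjusted p = 8.72e-05).

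The altitude effect of NQO1 was 0.74 (SE 0.038, limma adjusted p = 3.81e-05) and the interaction was 1.64 (SE 0.075, limma adjusted p = 2.48e-05), while the breed effect of 0.21 (SE 0.038) was not called. Scaling moved these little, with 0.57 to 0.74 for altitude and 1.31 to 1.66 for the interaction over the 4 scalings. The call for altitude was lost without any 1 array, and that for the interaction without any 1 of the TH, DH or DL arrays.

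Superoxide dismutase was represented by SOD2, the mitochondrial manganese enzyme, with 3 probes that did not follow each other. The brightest had a log2 signal of 15.56 and 15.55 in TH, 15.97 and 15.91 in TL, 15.28 and 15.24 in DH, and 15.40 and 15.36 in DL. It was highest in TL and lowest in DH without overlap of groups. With the 75th percentile scaling TL was instead the lowest group, at 4.62 and 4.56, and TH minus TL turned from -0.39 to 0.36. TL minus DL then turned from 0.56 to -0.12, and TL minus DH from 0.69 to -0.11. The breed difference was 0.43 (SE 0.024), and 0.07 with the 75th percentile scaling, given without a test.

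A second SOD2 probe was on the deposited values also highest in TL, at 14.03 and 14.05, and lowest in DH, at 13.31 on both arrays, and its Pearson correlation with the brightest over the 8 arrays was 0.85. The third and dimmest was instead highest in TH, at 8.30 and 8.34, and lowest in TL, at 7.38 and 7.44, with a correlation of -0.47 with the brightest. In all 3 SOD2 probes TH was above DL and above DH under each of the 4 scalings, by 0.12 to 0.63 and by 0.30 to 0.58 on the deposited values. These 8 arrays share groups and slides, and the correlations are descriptions.

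Catalase, the peroxisomal enzyme that decomposes hydrogen peroxide, was measured by a bright RefSeq-named probe of CAT. Its log2 signal was 16.03 and 16.02 in TH, 16.44 and 16.41 in TL, 16.40 and 16.36 in DH, and 16.60 and 16.62 in DL. TH was lowest and DL highest, and TL and DH, next to each other in the order, differed by 0.05 (SE 0.028, limma adjusted p = 0.196). With the 75th percentile scaling TL was instead the lowest group, at 5.11 and 5.09 against 5.86 and 5.83 in DH. CAT was 1.50-fold lower in TH than in DL (-0.59, SE 0.028, limma adjusted p = 5.22e-05), and TH was 0.35 below DH (SE 0.028), which was not called (limma adjusted p = 3.28e-04).

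The altitude effect of CAT was -0.32 (SE 0.020, limma adjusted p = 7.66e-05), but with the 75th percentile scaling it was 0.15, since TH was then above TL by 0.31, and the call was lost without any 1 array. A dimmer probe that the tables of the study name CAT followed another course, with 11.37 and 11.48 in TL against 8.86 and 8.84 in TH, 9.63 and 9.62 in DH, and 9.11 and 9.13 in DL. Both probes were lowest in TH on the deposited values, and their correlation over the 8 arrays was 0.29. Whether both detect the same transcript was not tested.

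The glutathione peroxidases differed among themselves. GPX3, the secreted plasma form, was 12.90 and 12.89 in TH, 13.98 and 13.91 in TL, 14.20 and 14.19 in DH, and 14.33 and 14.31 in DL at its brighter probe. TH lay below all others, by 1.43 (SE 0.031) from DL, which is 2.69-fold, by 1.30 (SE 0.031) from DH and by 1.05 (SE 0.031) from TL. The second GPX3 probe gave -1.53 (SE 0.025), -1.52 (SE 0.025) and -0.95 (SE 0.025) for the same differences. With the 75th percentile scaling TH remained lowest at both probes, with TH minus TL of -0.47 and -0.43. GPX3 was named by the tables of the study alone, so that these are values without a test.

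GPX4, the selenoenzyme that reduces lipid hydroperoxides in membranes, was highest in TH. Its brighter probe was 16.43 and 16.42 in TH, 15.67 and 15.72 in TL, 15.97 and 15.99 in DH, and 15.85 and 15.82 in DL, in the order TH, DH, DL and TL without overlap. It was 1.51-fold higher in TH than in DL (0.59, SE 0.029, limma adjusted p = 5.74e-05). The altitude effect was 0.44 (SE 0.021, limma adjusted p = 2.87e-05) and 0.89 with the 75th percentile scaling, and its call was lost without any 1 array.

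The second GPX4 probe had an altitude effect of 0.50 (SE 0.020, limma adjusted p = 1.78e-05), and the correlation of both probes was 0.99. Its interaction of 0.63 (SE 0.040) was called (limma adjusted p = 7.79e-05), whereas that of the brighter probe, 0.59 (SE 0.041), fell just outside (limma adjusted p = 1.09e-04). The breed effects of 0.15 and 0.16 were not called and turned to -0.15 and -0.22 with the 75th percentile scaling.

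GPX1, the abundant cytosolic form, was 17.83 and 17.90 in TH, 17.46 and 17.35 in TL, 17.84 and 17.66 in DH, and 17.74 and 17.70 in DL. TH overlapped with DH, and DH with DL, and TL was below the rest. No effect was called, with a breed effect of -0.10 (95% interval -0.24 to 0.03), an altitude effect of 0.24 (0.11 to 0.38) and an interaction of 0.43 (0.16 to 0.71). With the 75th percentile scaling these were -0.38, 0.63 and 0.84, of which none was called and all lay outside the intervals just given.

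PRDX6, a peroxiredoxin that also acts on phospholipids, was 15.38 and 15.30 in TH, 15.80 and 15.70 in TL, 15.82 and 15.84 in DH, and 15.93 and 15.97 in DL at its brighter probe. On these values both TH arrays were lowest, at 1.52-fold below DL (-0.60, SE 0.049), which was not called (limma adjusted p = 2.89e-04). The second PRDX6 probe showed the same order of group means with a smaller TH minus DL of -0.29 (SE 0.033, limma adjusted p = 0.00109), and the correlation of both was 0.99. With the 75th percentile scaling TH was above TL, by 0.33 and 0.28, and the altitude effects turned from -0.26 and -0.13 to 0.19 and 0.12.

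TXN, the cytosolic thioredoxin, had a narrow range on the deposited values. The brightest probe was 16.14 and 16.12 in TH, 16.20 and 16.18 in TL, 16.25 and 16.34 in DH, and 16.35 and 16.44 in DL, which spans 1.20-fold from the highest to the lowest group mean. With the 75th percentile scaling the range was 1.93-fold, from 4.82 on both TL arrays to 5.73 and 5.81 in DH. The breed effect of -0.18 (SE 0.034) was not called (limma adjusted p = 0.00514), nor was the altitude effect of -0.08 (SE 0.034), and the latter was 0.39 with the 75th percentile scaling. The other RefSeq-named probe had the same order of groups, and a dim probe named by the tables, was 8.71 and 9.23 on the DL arrays, the widest spread within a group among the member probes.

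**Figure D2:**
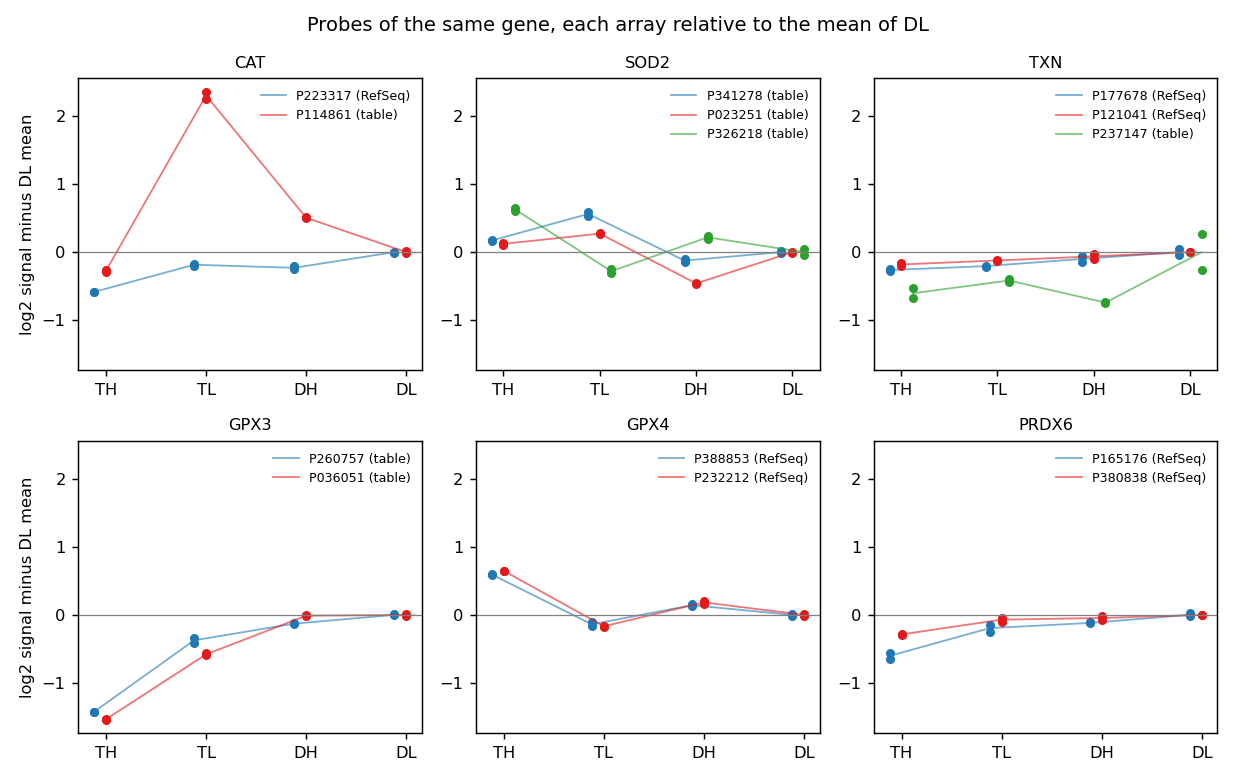
Log2 signal of each array minus the mean of the DL arrays (vertical axis) for genes with more than 1 probe; points are arrays, lines join group means, and colors are probes with the source of their name. The probes of GPX3, GPX4 and PRDX6 run together, whereas 1 probe each of CAT, SOD2 and TXN takes another course.

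Over the 10 RefSeq-named member probes, 1 was called for breed (HMOX1, lower in Tibetan pigs), where 27.4% of all tested probes were called and 14.6% were called lower. For altitude 5 were called, where 26.3% of all probes were: 3 higher at high altitude (both GPX4 probes and NQO1, with 14.0% of all probes called higher) and 2 lower (CAT and HMOX1, with 12.2% called lower). With the 75th percentile scaling the altitude calls were 4 higher and 0 lower, where 30.2% of all probes were called. With any 1 array left out 0 of 10 were called, where 3.57% to 6.96% of all probes were. For the interaction 3 were called (HMOX1, NQO1 and 1 probe of GPX4), near the 28.4% of all probes. Among the 24775 probes that, like the members, were well above background on all 8 arrays, 34.4% were called for breed, 33.8% for altitude and 35.0% for the interaction. The median difference over the 10 probes was -0.14 for breed, -0.07 for altitude and 0.02 for the interaction, beside -0.07, 0.01 and 0.21 over all tested probes.

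**Figure D3:**
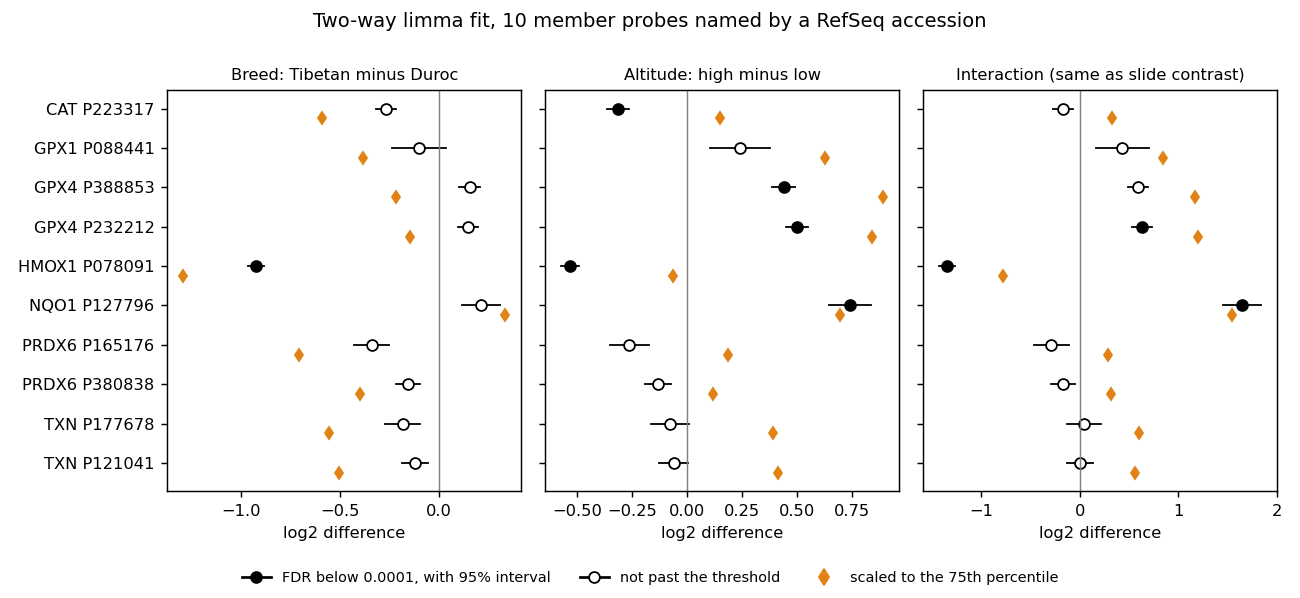
Breed, altitude and interaction differences (horizontal axes, log2) of the 10 RefSeq-named member probes; circles with lines are limma estimates with 95% intervals, filled where called, and diamonds are the estimates with the 75th percentile scaling. HMOX1 keeps a negative breed effect and interaction and NQO1 a positive altitude effect and interaction under both, while the altitude effects of CAT, PRDX6 and TXN change sign.

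TH minus DL and TH minus DH use no TL value, although their tests share the spread of all 8 arrays. TH minus DL holds breed and altitude together, and TH minus DH crosses the slides. Both TH arrays lay below all 4 Duroc arrays for 6 of the 10 probes (CAT, HMOX1, both TXN and both PRDX6), where 25.4% of all tested probes did so, and above them for 3 (both GPX4 and NQO1), where 23.8% did so. Among probes well above background on all 8 arrays these shares were 30.0% and 26.8%. Both member counts were the same with the 75th percentile scaling, and only GPX1 overlapped. In limma, TH minus DL was called for 5 of 10 (CAT, HMOX1, both GPX4 and NQO1; 14.1% of all probes), and TH minus DH for 2 of 10 (HMOX1 and NQO1; 9.33% of all probes). In a fit limited to probes well above background on all 8 arrays, as the members are, 33.4% and 25.0% of probes were called for these 2 comparisons. The member counts just given are from the fit of all tested probes. With both TL arrays left out, which also lowers the degrees of freedom, HMOX1 was the only RefSeq-named member called in either comparison, where 0.782% and 0.663% of all probes were called.

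Between the Duroc groups, DH minus DL, limma called 0 of 10, where 9.95% of all probes were called. At an unadjusted p below 0.05 there were 4 of 10 (CAT, HMOX1 and both GPX4), where 64.0% of all probes were. The model without moderated variances also called 0 of 10, where it called 2.7% of all probes. The differences ranged from -0.23 (CAT, 95% interval -0.30 to -0.16) to 0.18 (second GPX4 probe, 0.11 to 0.26). Between the Tibetan groups, TH minus TL was called for 5 of 10 (CAT, HMOX1, both GPX4 and NQO1), beside 37.1% of all probes, with CAT turning sign under the 75th percentile scaling. Those comparisons cross the slides, and the slide cannot be told apart from each of them.

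**Figure D4:**
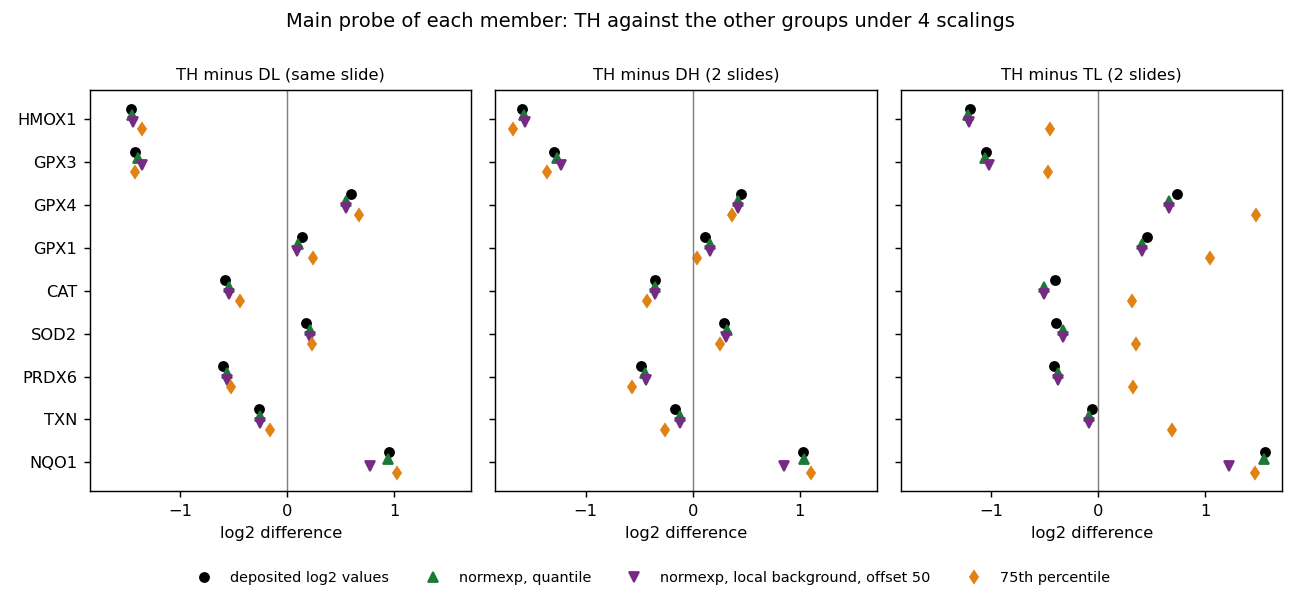
Log2 difference (horizontal axes) of TH from DL, DH and TL for the main probe of each of the 9 genes, under the deposited values and 3 other scalings (symbols). The symbols lie close together for TH minus DL and TH minus DH, whereas for TH minus TL the 75th percentile scaling moves CAT, SOD2, PRDX6 and TXN from below 0 to above 0 and leaves HMOX1 and GPX3 below 0.

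The genes whose main probes ran most like HMOX1 over the 8 arrays were, of 1521 RefSeq-named genes ranked by Pearson correlation, PDK4 (0.999), VIPR1 (0.996), SGMS1 (0.995) and ACKR4 (0.994), and 26 genes were above 0.95. PDK4, a kinase that inhibits pyruvate dehydrogenase, was 12.23 on both TH arrays against 13.97 and 14.01 in TL, 14.54 and 14.56 in DH, and 14.28 and 14.27 in DL. Among the members, the correlation with HMOX1 was 0.99 for GPX3, 0.95 for PRDX6 and 0.89 for CAT, and it was -0.80 for NQO1 and -0.83 for GPX4. NQO1 and GPX4 had a correlation of 0.96 with each other. All these correlations are on the deposited values alone. The 8 points share groups and slides, and on these values they are mostly set by TH against the rest. The correlations were not computed with the 75th percentile scaling, and they can depend on it through TL. With that scaling TL minus DL moved from -0.26 to -0.91 for HMOX1 and from -0.14 to -0.80 for GPX4. For NQO1 it moved from -0.61 to -0.43. The negative correlation of GPX4 with HMOX1 may therefore not hold under that scaling.

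Of 73 other genes of antioxidant defense, glutathione, thioredoxin, metallothionein and NRF2 pathways, 22 had a RefSeq-named probe. For breed, a mean over both altitudes, 4 were called, all lower in Tibetan pigs, which is 18.2% against 27.4% of all probes. These were the metallothionein MT1A (-2.21, SE 0.019), the glutathione-cleaving transferase GGT1 (-1.36, SE 0.031), the copper chaperone of SOD1, CCS (-0.80, SE 0.029), and the methionine sulfoxide reductase MSRB1 (-0.60, SE 0.025). MT1A was 13.89 and 13.92 in TH and 14.45 and 14.42 in TL, and 16.26 and 16.28 in DH and 16.46 and 16.49 in DL, so that the breeds were separated at both altitudes. GGT1 means were also lower in Tibetan pigs at both, with 8.87 in TH, 10.01 in DH, 7.50 in TL and 9.08 in DL. CCS was lower in Tibetan pigs at low altitude alone, at 9.28 in TL and 10.99 in DL, against 11.92 in TH and 11.82 in DH. For MSRB1 the means were 14.48 in TL and 15.55 in DL, and nearer to each other at 15.90 in TH and 16.03 in DH.

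For altitude 8 of the 22 were called, which is 36.4% against 26.3% of all probes, with 6 higher and 2 lower at high altitude. The largest were CCS (1.74, SE 0.029), GGT1 (1.15, SE 0.031), MSRB1 (0.95, SE 0.025) and the epithelial peroxidase GPX2 (0.80, SE 0.040). GPX2 was higher at high altitude in Tibetan pigs alone, with TH minus TL of 1.77 and DH minus DL of -0.18. CCS was 9.33 and 9.23 in TL against 11.93 and 11.91 in TH, 11.82 on both DH arrays, and 11.01 and 10.96 in DL, so that it was higher at high altitude in both breeds. The 2 lower genes were TXNIP, which binds and inhibits thioredoxin (-0.69, SE 0.018), and MT1A (-0.37, SE 0.019, and 0.06 with the 75th percentile scaling). With that scaling 14 were called, 13 of them higher, where 30.2% of all probes were called and 6658 of those 10387 were higher.

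For the interaction 5 of the 22 were called, which is 22.7% against 28.4% of all probes, with 4 positive (GPX2, CCS, MSRB1 and GSTA1) and 1 negative (TXNIP, -0.74, SE 0.037, and -0.12 with the 75th percentile scaling). GPX2 was 10.87 and 10.82 in TH and 9.15 and 8.99 in TL, against 10.10 and 10.06 in DH and 10.28 and 10.25 in DL. KEAP1, the inhibitor of NRF2, was 12.98 and 13.06 in TH, 12.36 and 12.44 in TL, 13.15 and 13.09 in DH, and 12.85 and 12.84 in DL, with no effect called. NFE2L2, BACH1, HMOX2, BLVRA and BLVRB had no RefSeq-named probe and were not analysed here.

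**Figure D5:**
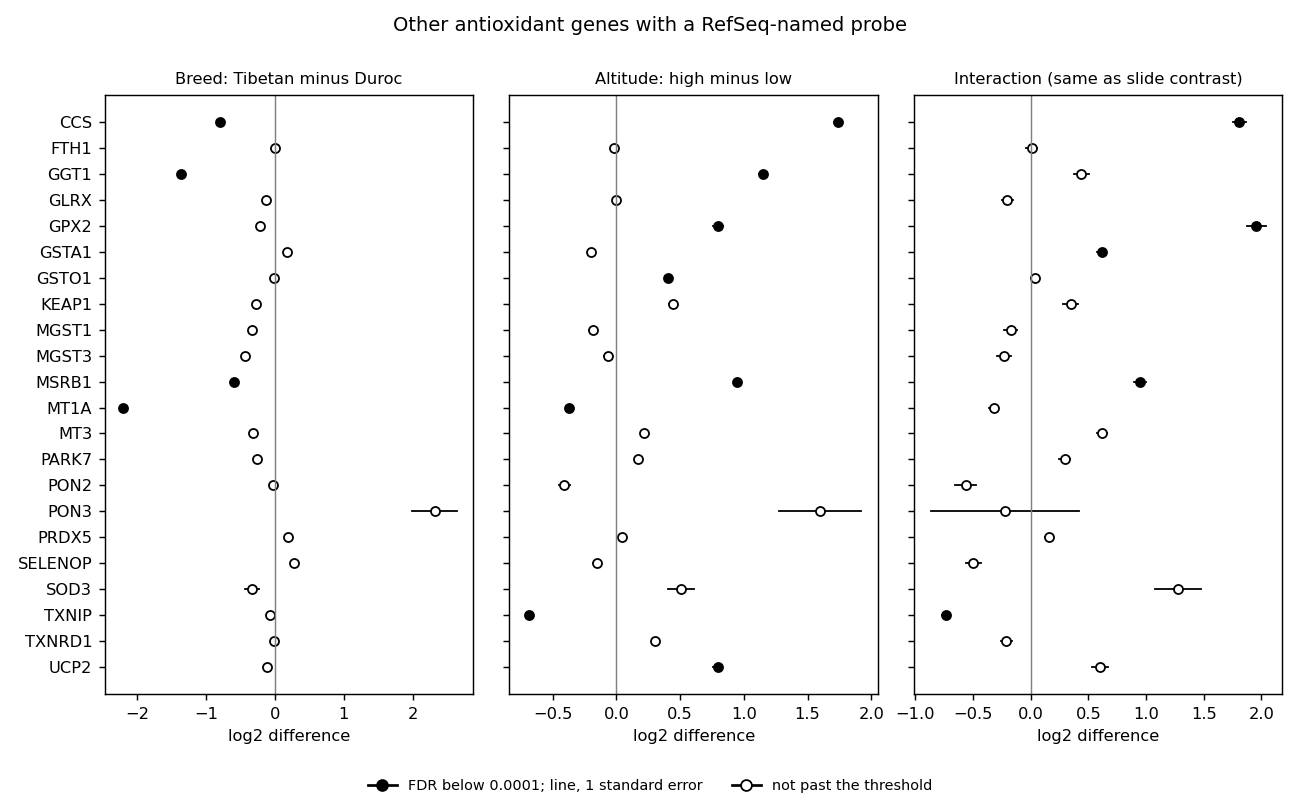
Breed, altitude and interaction differences (horizontal axes, log2) of the 22 other antioxidant genes with a RefSeq-named probe, from limma on the deposited values; lines are 1 standard error and filled circles are called. MT1A and GGT1 have the most negative breed effects and CCS the largest altitude effect.

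Of 14 genes of the NADPH oxidases, which produce superoxide or hydrogen peroxide, 4 had a RefSeq-named probe. Breed was called lower in Tibetan pigs for 3 of the 4, where 14.6% of all probes were: CYBA (-0.42, SE 0.025), DUOX1 (-1.02, SE 0.032) and DUOX2 (-0.67, SE 0.023). NCF1, a cytosolic subunit of the phagocyte oxidase, was -0.31 (SE 0.025) and was not called (limma adjusted p = 2.04e-04). DUOX2 was 12.26 and 12.30 in TH against 13.64 to 13.82 on all other arrays, and was lowest in TH as HMOX1 and GPX3 were. Its means were 13.81 in TL, 13.78 in DH and 13.65 in DL, so that at low altitude it was not lower in Tibetan pigs on these values. TL minus DH of DUOX2 moved from 0.03 to -0.58 with the 75th percentile scaling. DUOX1, DUOX2 and GPX2 are known from airway epithelium, whose secretory markers differed between the breeds as given above, and the part of those cells was not tested.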

How the data were processed

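Lung RNA of 8 pigs was measured on 1-color Agilent porcine arrays. The authors extracted the intensity of each spot with Feature Extraction 10.7.3.1, as recorded in the deposited scanner files, with flags for probes well above background. The authors' table of deposited log2 values was, by their methods, normalized with RMA. Each column has a median of 7.40, and the rank correlation with the processed signals was at least 0.99999553. These log2 values were used without further change. Groups came from the labels.

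Gene symbols came from RefSeq accessions of the design (2683 of 3250 matched) and from the study's tables, which were held in part. The 2 sources gave 1 symbol for 98.0% of the 660 probes that both name. The array build was not given in the sources used here, so that no coordinates are printed.

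limma 3.58.1 in R 4.3.3 fitted breed, altitude and their interaction to 34406 probes, with moderated variances. The study used a two-way ANOVA at the same threshold. The alternatives were normexp with quantile normalization, scaling to the 75th percentile, normexp with local background and an offset of 50, other filters, no moderation, an intensity trend, an FDR below 0.05, slide or replicate number as a block, all member probes, and each array left out. The comparisons between pairs of groups, and leaving out both TL arrays, were added after seeing the data. On 34406 simulated probes for the breed effect, 34 of 100 changes of 1 and 69 of 100 changes of 2 log2 units were recovered with 0 false calls. Only these probes were changed, and the noise was independent, with no slide or brightness difference between arrays. In the data 27.4% of probes were called for breed, so that neither the recovery nor the false calls carry over to the fit. Figures were drawn with matplotlib 3.10.9.

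The main probe was the brightest RefSeq-named probe of a gene, otherwise the brightest of the tables. Every member was named. Of the pathway list, up to 4 called genes with the largest coefficients for each effect were named, with KEAP1, NFE2L2, BACH1, HMOX2, BLVRA and BLVRB. The genes TXNIP, GSTA1, CYBA, DUOX1, DUOX2 and NCF1 were also named where a count was given. The members and lists were chosen with earlier results of these data known. The number of arrays limits the precision.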

Additional observations from a re-analysis of the deposited data

Results flagged for a closer look

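For 15 probes of the member, pathway, oxidase and lung cell marker lists, the altitude difference was not the same in Tibetan and Duroc pigs. This is TH minus TL against DH minus DL, by the limma test of the interaction over all probes (adjusted p from 3.32e-06 to 9.87e-05). The calls were 3 of 10 member probes, 5 of 22 pathway genes, and 1 positive and 1 negative of 4 oxidase genes. Among markers they were 1 of 4 for macrophages, 1 of 2 for neutrophils and 1 of 2 for secretory airway cells. For alveolar type II cells they were 2 of 4, with 0 of 2 endothelial and 0 of 3 smooth muscle markers. Of all tested probes 28.4% were called, and 35.0% of those well above background on all 8 arrays. In each of the 15 the slide cannot be told apart from the interaction. For HMOX1 the interaction was -1.34, with -1.20 in Tibetan and 0.14 in Duroc pigs (-0.78 and, in Tibetan pigs, -0.45 with the 75th percentile scaling), and for NQO1 it was 1.64, with 1.56 and -0.08. For the second probe of GPX4 it was 0.63, with 0.81 and 0.18. For CCS the interaction was 1.81, with 2.64 and 0.83, for MSRB1 it was 0.95, with 1.42 and 0.48, for GPX2 it was 1.96, with 1.77 and -0.18, for GSTA1 it was 0.61, with 0.11 and -0.51, and for TXNIP it was -0.74, with -1.06 and -0.32. In the oxidase genes it was 1.15 for NCF1, with 1.03 and -0.12, and -1.66 for DUOX2, with -1.53 and 0.13. Among the markers it was -0.64 for the macrophage gene CD163, with -0.25 and 0.39, and 2.56 for LTF, with 1.29 and -1.27. With the 75th percentile scaling the interaction of CD163 was -0.19 and was not called (limma adjusted p = 0.00973). The altitude effect of CD163 was then 0.49, so that TH minus TL turned positive. On the deposited values the interaction was -0.87 for SFTPB, with -0.20 and 0.67, and -1.02 for SFTPA1, with -0.46 and 0.56. For BPIFA1 the interaction was -3.13, with -1.42 and 1.71.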

How the results depend on the processing

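The counts of called member probes out of 10 RefSeq-named ones changed by more than 1.5 times under these settings. For breed (1 called) they were 6 with the 75th percentile scaling and 2 with probes well above background on all 8 arrays. They were 3 with an intensity trend and 9 at an FDR below 0.05. For altitude (5 called) they were 2 with normexp, 3 without moderation and 8 at an FDR below 0.05. For the interaction (3 called) they were 1 without moderation and 8 at an FDR below 0.05. For TH minus DL (5 called) they were 2 with normexp, 3 without a filter, 1 without moderation, 1 without the TL arrays and 9 at an FDR below 0.05. For TH minus DH (2 called) they were 5 with probes well above background on all 8 arrays, 1 without a filter and 1 without moderation. They were 6 with an intensity trend, 1 without the TL arrays and 9 at an FDR below 0.05. For DH minus DL (0 called by limma, 4 at an unadjusted p below 0.05) the count was 4 at an FDR below 0.05. The share of all tested probes called moved with these settings too. For breed it was 27.4%, and 33.0% with the 75th percentile scaling, 48.5% with probes well above background on all 8 arrays, 38.3% with an intensity trend and 71.6% at an FDR below 0.05. For altitude it was 26.3%, and 17.4% with normexp, 15.3% without moderation and 70.8% at an FDR below 0.05. For the interaction it was 28.4%, and 16.5% without moderation and 73.7% at an FDR below 0.05. For TH minus DL it was 14.1%, and 6.47% with normexp, 8.37% without a filter, 6.0% without moderation, 0.782% without the TL arrays and 61.5% at an FDR below 0.05. For TH minus DH it was 9.33%, and 25.0%, 5.35%, 3.46%, 20.7%, 0.663% and 58.9% in the order of the settings above. For DH minus DL it was 9.95%, and 60.2% at an FDR below 0.05.

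Leaving out 1 array gave 1 call for breed, 0 for altitude, 1 to 2 for the interaction, 0 to 1 for TH minus DL, 0 to 1 for TH minus DH and 0 for DH minus DL, in fits with fewer arrays, where 6.51% to 10.4%, 3.57% to 6.96%, 7.78% to 11.3%, 0.34% to 1.82%, 0.32% to 0.764% and 0.0% to 0.116% of all probes were called. For the 22 pathway genes it gave 2 to 3 for breed (4 called), 1 to 3 for altitude (8 called) and 0 to 2 for the interaction (5 called). The pathway counts follow with the share of all tested probes in brackets. For breed they were 14 with the 75th percentile scaling (33.0%), 7 with local background and an offset of 50 (28.8%) and 10 with an intensity trend (38.3%). They were 9 with probes well above background on all 8 arrays (48.5%) and 18 at an FDR below 0.05 (71.6%). For altitude they were 5 with normexp (17.4%), 14 with the 75th percentile scaling (30.2%), 13 with an intensity trend (37.4%) and 18 at an FDR below 0.05 (70.8%). For the interaction they were 3 with normexp (21.1%), 9 with the 75th percentile scaling (32.2%), 3 without moderation (16.5%) and 19 at an FDR below 0.05 (73.7%).

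With the replicate number as a block, the member calls were 0 for altitude, 1 for the interaction, 1 for TH minus DL and 1 for TH minus DH (8.39%, 11.9%, 0.718% and 0.605% of all probes), and the pathway calls were 4 for altitude and 2 for the interaction. The numbers gave no pairing, since the correlations of same-numbered arrays' deviations from their group means were -0.043 to 0.091. Slide as a block left the breed and altitude differences as they were, by construction.

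Directions turned with the 75th percentile scaling for CAT (altitude 0.15, interaction 0.32), GPX4 (breed -0.22), TXN (altitude 0.39) and PRDX6 (altitude 0.19, interaction 0.28), and for TXN, with an interaction of 0.04, when the second DL array (-0.0044) or the first DH array (-0.0043) was left out (range -0.0044 to 0.090 over the 8 arrays). SOD2, given without a test, also turned with the 75th percentile scaling at its brightest probe. Its altitude difference went from -0.26 to 0.17 and its interaction from -0.27 to 0.37. Over all tested probes that scaling moved the altitude calls from 4831 higher of 9041 to 6658 higher of 10387. The cause of these changes was not tested, and no result rests on more than 2 arrays per group.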
